A study of Homo sapiens with 51 samples.

Results

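The 7 cadherin genes described here are CDH1 (E-cadherin), CDH2 (N-cadherin), CDH3 (P-cadherin), CDH4 (R-cadherin), CDH6 (K-cadherin), CDH11 (OB-cadherin) and CDH13 (T-cadherin). They were taken by symbol from a table of 25421 genes, and all 7 reached 10 counts in at least 1 of the 51 libraries. The libraries came from 5 human pancreatic ductal adenocarcinoma (PDA) lines, in 17 groups of 3. KP4, PANC1 and PK45H were left untreated, or received lentivirus for mCherry, a fluorescent protein used as the control, or for OVOL2, a zinc-finger transcription factor of epithelial cells, each with and without a second virus for M2rtTA, a doxycycline-responsive transactivator. HPAFII and PATU8988S were present as untreated cells alone. Virus was given at a multiplicity of infection of 2 with 8 µg/ml polybrene, puromycin (2.5 µg/ml) and doxycycline (0.6 µg/ml) were added a day later, and 100 ng of RNA was taken after 6 days. Transductions were made in triplicate wells, and the labels do not say whether the wells were run on separate occasions, so p-values measure the spread between these libraries. The promoter that drives each open reading frame is not given in the labels.

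Classical cadherins are calcium-dependent adhesion molecules that span the cell membrane. The outer part pairs with cadherins of the neighbouring cell, and the inner tail binds p120-catenin and β-catenin or plakoglobin, which reach actin through α-catenin. E-cadherin holds epithelial sheets together, whereas N-cadherin is typical of neural and mesenchymal cells. The replacement of E-cadherin by N-cadherin, called the cadherin switch, is a classic mark of epithelial-mesenchymal transition in carcinomas, and OVOL proteins are known as factors of the epithelial state. T-cadherin differs from the others in that it has no inner tail and is held in the membrane by a lipid anchor.

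In GRCh38 coordinates of RefSeq, 4 of the 7 genes lie on chromosome 16. CDH3 (68645310 to 68733771) ends 3520 bases before CDH1 (68737292 to 68835537), on the same strand. CDH11 (64943753 to 65123744) and CDH13 (82626969 to 83800640) lie on the same arm further away. CDH2 is on chromosome 18 (27932879 to 28177130, minus strand), CDH4 on chromosome 20 (61252261 to 61940617) and CDH6 on chromosome 5 (31193686 to 31329146). Of the 7 genes, 2 (CDH2 and CDH4) had a promoter in the RefSeq promoter table used, with 4 promoters in all. The CDH2 promoter at the start of the gene is shown because CDH2 was the member that fell most with OVOL2. It runs from 250 bases before to 50 bases after the annotated start at chr18:28177081-28177380 (GRCh38.p14, minus strand), and the capital marks the start base, base 251 from the 5′ end.
CDH2 promoter: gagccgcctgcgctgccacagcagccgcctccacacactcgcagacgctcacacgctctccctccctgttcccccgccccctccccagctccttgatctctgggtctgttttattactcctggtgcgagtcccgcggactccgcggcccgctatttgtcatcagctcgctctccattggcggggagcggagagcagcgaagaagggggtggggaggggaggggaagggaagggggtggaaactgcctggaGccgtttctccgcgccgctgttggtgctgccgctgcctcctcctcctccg
Its G and C content was 67%, against a median of 58.7% over 35116 promoters of that length. The letters CCGTTA, a core found in sites of OVO-family proteins, and CAGGTG, an E-box bound by ZEB and SNAIL proteins, were searched on both strands, and neither is in this window. The other CDH2 window (chr18:28036592-28036891) also has neither. Of the CDH4 windows, chr20:61499171-61499470 has CAGGTG at base 235 and chr20:61599511-61599810 has neither. CCGTTA was in 3.07% of all promoters of this length and CAGGTG in 20.6%.

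Library totals ran from 1165399 to 7490556 counts, with a median near 4.77e+06. The smallest library, HPAFII replicate 2, stood apart: its CDH1 was 31.6 CPM (the count scaled to the size of its library, with TMM, a trimmed-mean correction) where the other HPAFII libraries had 85.5 and 108, and its CDH4 was 28.6 CPM where they had 8.23 and 5.33. Without it, the HPAFII means were 96.6 CPM for CDH1 (74.9 with it), 10.3 for CDH3 (10.3), 6.78 for CDH4 (14.0) and 136 for CDH6 (113). The ductal keratins KRT7, KRT8, KRT18 and KRT19 were present in every library, with a summed level of 568 to 1010 CPM in KP4, 1686 to 4574 CPM in PANC1 and PK45H, and 3943 to 13443 CPM in the other lines. Summed leukocyte markers (PTPRC, CD3E, LYZ) lay at 13.5 to 30.1 CPM in HPAFII, 10.2 to 16 CPM in PATU8988S and 0 to 9.49 CPM in the transduced lines. Endothelial markers (PECAM1, VWF) lay at 1.95 to 11.7 CPM over all libraries. Fibroblast markers (COL1A1, COL1A2, DCN, LUM) lay at 11.4 to 18.8 CPM in HPAFII and 7.09 to 13.7 CPM in PATU8988S. They lay at 12.1 to 50.6 CPM in KP4, 21.0 to 66.8 CPM in PANC1 and 7.24 to 31.9 CPM in PK45H. The part of these markers in the differences between lines was not tested. OVOL2 itself rose with its virus plus M2rtTA, by 2.15 on the log2 scale over 3 lines (SE 0.44, adjusted p = 0.00021). In PANC1 alone the change did not pass (1.40, SE 0.74, adjusted p = 0.244), and the OVOL2 and mCherry libraries overlapped. KP4 passed (3.08, SE 0.92, adjusted p = 0.0272), and in KP4 and PK45H the OVOL2 libraries lay above the mCherry libraries. Their means were 4.92 against 0.532 CPM in KP4 and 4.45 against 1.13 CPM in PK45H. Over 3 lines without M2rtTA, OVOL2 did not pass the test, at -0.09 (SE 0.46, adjusted p = 0.926), and in those OVOL2 libraries it held 1 to 10 counts. Whether transcripts of the virus are counted as OVOL2 is not given in the labels, so the OVOL2 count may not show what the virus delivered. In bulk RNA, a change in the share of cells that express a gene and a change in RNA per cell cannot be told apart.

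In untreated cells, CDH1 divided the 5 lines into a high and a low set. It measured 98.4, 106 and 115 CPM in PATU8988S, and 85.5, 31.6 and 108 CPM in HPAFII. The other lines held 6.25 to 8.23 CPM (PANC1), 4.14 to 8.48 CPM (PK45H) and 3.83 to 7.11 CPM (KP4), and no library of these lines came near the high set. The mean of HPAFII and PATU8988S was 15.5-fold above that of the other 3 lines (log2 fold change 3.95, SE 0.24, adjusted p = 1.34e-08, and 4.12 without HPAFII replicate 2). Of the 10 pairs of lines, 6 differed in CDH1, the 6 that cross the sets. The share of all genes called was 29.9%, 28.7% and 25.2% for HPAFII against KP4, PANC1 and PK45H in turn, and 32.5%, 29.3% and 28.3% for PATU8988S against the same lines. It was 20.2% for HPAFII against PATU8988S, 21.9% for KP4 against PANC1, 23.5% for KP4 against PK45H and 25.6% for PANC1 against PK45H. Within the sets, PATU8988S and HPAFII differed by 0.46 (SE 0.34, adjusted p = 0.383), and PANC1 and PK45H by 0.36 (SE 0.39, adjusted p = 0.564).

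CDH2 did not mirror that order. PANC1 was highest at 8.01, 12.4 and 12.8 CPM, followed by KP4 (5.10, 3.30 and 2.33 CPM), PATU8988S (2.24, 2.94 and 0.886 CPM), PK45H (1.33, 1.56 and 0.731 CPM) and HPAFII, which had only 2, 2 and 3 counts. The PANC1 libraries did not overlap those of any other line. PANC1 exceeded KP4, the next line, by 1.67 (SE 0.39, adjusted p = 0.00681), and PK45H by 3.23 (SE 0.44, adjusted p = 8.58e-05). KP4 exceeded PK45H by 1.57 (SE 0.45, adjusted p = 0.0205), a call lost without KP4 replicate 1 (adjusted p = 0.106) or PK45H replicate 3 (0.0928). PATU8988S was not separated from either KP4 (0.75 lower, SE 0.45, adjusted p = 0.229) or PK45H (0.82 higher, SE 0.49, adjusted p = 0.248). PK45H, low in CDH1, was thus also low in CDH2. Set against the 3 transduced lines together, HPAFII and PATU8988S were lower in CDH2, by -1.38 on the log2 scale (SE 0.35, adjusted p = 0.00651).

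CDH3, which in epithelia is found mostly in basal cells, grouped KP4 with the CDH1-high lines. Untreated levels were 15.1 ± 3.69 CPM in PATU8988S, 13.9 ± 3.19 in KP4 and 10.3 ± 1.47 in HPAFII, and 1.69 ± 1.19 and 1.48 ± 0.906 in PANC1 and PK45H (mean ± SD, n = 3). The first 3 lines did not differ among themselves past the threshold (PATU8988S against HPAFII, adjusted p = 0.393), and the lowest of them, HPAFII, stood 2.57 above PANC1 (SE 0.48, adjusted p = 0.000927). CDH4, best known from retina and brain, was called in 2 of its 10 pairs, HPAFII above KP4 and above PANC1. Neither call held without HPAFII replicate 2 (adjusted p of 0.261 and 0.214). The first was also lost without KP4 replicate 1 (0.0771) or 2 (0.131), and the second without any 1 PANC1 library (0.0563 to 0.101). CDH13 was called in 0 of 10 pairs by edgeR, with group means of 1.18 to 3.09 CPM, and CDH11 was too low for the test. In all, 5 of 6 members tested differed between the HPAFII and PATU8988S mean and the other lines, 4 higher and 1 lower, where 34.8% of all genes did (17.4% in each direction). The higher members were CDH1, CDH3 (1.94, SE 0.27, adjusted p = 5.91e-05), CDH4 (1.11, SE 0.35, adjusted p = 0.0231) and CDH6 (1.62, SE 0.36, adjusted p = 0.00277). The CDH4 call was lost without HPAFII replicate 2 (0.63, adjusted p = 0.0775) or PATU8988S replicate 1 (0.98, adjusted p = 0.0669). The CDH6 call came with unequal lines. PATU8988S had 12.9, 24 and 13.3 CPM, overlapping the 8.27 to 42 CPM of the 3 transduced lines, and HPAFII exceeded PATU8988S by 2.79 (SE 0.59, adjusted p = 0.00386). PATU8988S did not differ from any transduced line past the threshold in CDH6 (adjusted p of 0.371 to 0.679). In a fit of all 51 libraries the CDH6 call for the HPAFII and PATU8988S mean was lost (adjusted p = 0.123). The call of HPAFII against PATU8988S was lost there too (adjusted p = 0.134).

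**Figure D1:**
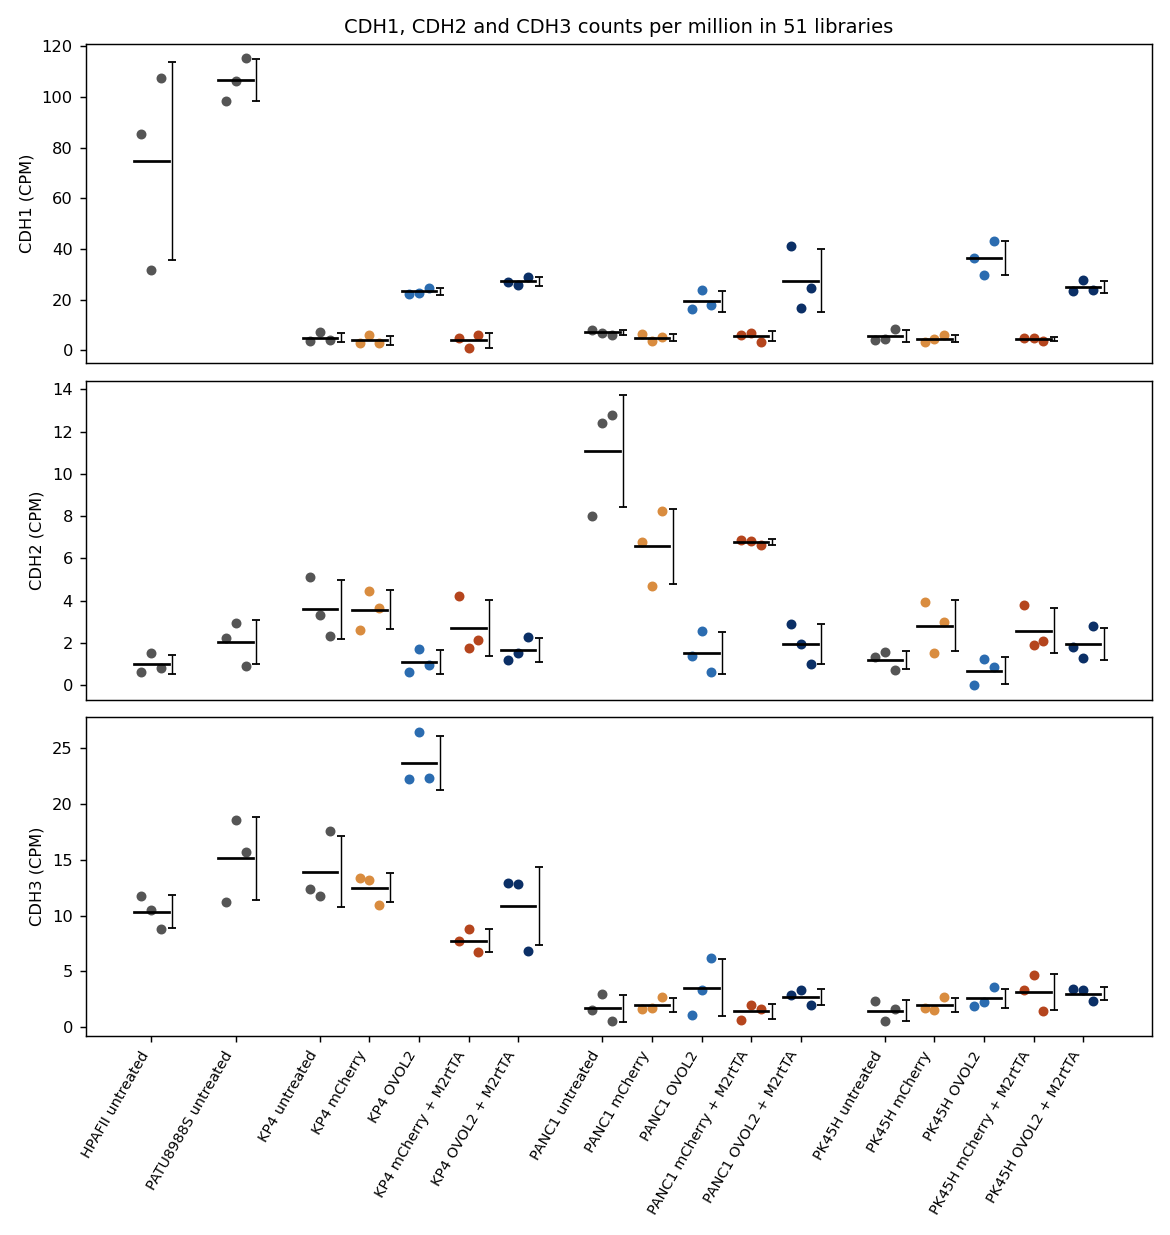
CDH1, CDH2 and CDH3 levels (vertical axes, CPM, each with its own scale) in each of the 51 libraries (points), by group (horizontal axis); horizontal bars are group means and error bars are SD (n = 3). All 18 OVOL2 libraries lie above all 18 mCherry libraries for CDH1 (lowest 16.3 against highest 7.01 CPM), CDH2 is highest in untreated PANC1, and CDH3 is high in HPAFII, PATU8988S and KP4.

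The main question of the design is what OVOL2 changes when it is put into lines with low CDH1. Over the 3 lines, 3 of 7 members were called without M2rtTA, CDH1 higher and CDH2 and CDH11 lower, beside 18.1% of all genes tested (9.32% higher and 8.81% lower). With M2rtTA, 2 of 7 were called, CDH1 higher and CDH2 lower, beside 32.9% of all genes (15.7% higher and 17.3% lower). DESeq2 called 5 members without M2rtTA, adding CDH3 and CDH6, and 2 with it. Within lines, the members called without M2rtTA were 3 of 6 in KP4 (CDH1, CDH2 and CDH3, beside 6.82% of all genes), 2 of 7 in PANC1 (CDH1 and CDH2, beside 5.08%) and 2 of 6 in PK45H (CDH1 and CDH6, beside 8.39%). With M2rtTA they were 1 of 6 in KP4 (CDH1, beside 22.4%), 2 of 7 in PANC1 (CDH1 and CDH2, beside 13.9%) and 2 of 6 in PK45H (CDH1 and CDH6, beside 15.9%).

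CDH1 rose in every line and in both arms. In KP4 it went from 3.09, 5.88 and 2.74 CPM with mCherry to 22.2, 22.7 and 24.8 CPM with OVOL2. With M2rtTA the KP4 values were 4.86, 0.756 and 6.16 CPM with mCherry and 27.1, 25.7 and 29 CPM with OVOL2. These were the tightest OVOL2 groups, and neither overlapped its control. PANC1 went from 6.33, 3.73 and 5.12 CPM to 16.3, 23.9 and 17.9 CPM, and with M2rtTA from 6.22, 7.01 and 3.31 CPM to 41.0, 16.8 and 24.6 CPM. The PANC1 group with OVOL2 and M2rtTA was the widest, through replicate 1. PK45H went from 3.18, 4.57 and 5.94 CPM to 36.5, 29.9 and 43.1 CPM, and with M2rtTA from 4.71, 5.06 and 3.83 CPM to 23.4, 27.7 and 23.8 CPM. OVOL2 and mCherry libraries were thus apart in 6 of 6 comparisons.

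The CDH1 change over 3 lines was 2.49 without M2rtTA (SE 0.22, adjusted p = 1.44e-10) and 2.52 with it (SE 0.22, adjusted p = 2.27e-11), or 5.63-fold and 5.74-fold. Line by line the change without M2rtTA was 2.56 for KP4 (SE 0.43), 1.95 for PANC1 (SE 0.36) and 2.93 for PK45H (SE 0.29). With M2rtTA it was 2.74 in KP4 (SE 0.43), 2.31 in PANC1 (SE 0.35) and 2.52 in PK45H (SE 0.27). All 6 were called, with adjusted p from 2.74e-05 to 0.00586. A difference between lines did not pass the test without (adjusted p = 0.572) or with M2rtTA (adjusted p = 0.875). M2rtTA shifted the OVOL2 effect on CDH1 by 0.03 over 3 lines (SE 0.31, adjusted p = 0.981). Without M2rtTA the OVOL2 count of these libraries did not differ from the control past the threshold, with the limit on that count given above. Group means of CDH1 with OVOL2 came to 18.1% to 34.2% of the untreated PATU8988S mean, and the mCherry groups to 3.66% to 5.17%. Of the 18 OVOL2 libraries, none reached the 5 HPAFII and PATU8988S libraries above 85 CPM, while HPAFII replicate 2 lay inside their range, at 31.6 CPM.

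CDH2 fell over the 3 lines in both arms. Its counts were low, 4 to 45 per mCherry library and 0 to 13 per OVOL2 library. In PANC1, the line with the most CDH2, the levels went from 6.79, 4.67 and 8.23 CPM with mCherry to 1.35, 2.58 and 0.618 CPM with OVOL2. With M2rtTA the PANC1 levels went from 6.89, 6.82 and 6.61 CPM to 2.88, 1.96 and 0.976 CPM, and in both arms the groups were apart. In KP4 the levels went from 2.60, 4.46 and 3.66 CPM to 0.618, 1.70 and 0.949 CPM. With M2rtTA, KP4 had 4.20, 1.77 and 2.12 CPM with mCherry and 1.16, 1.5 and 2.27 CPM with OVOL2, and the groups overlapped. PK45H had 3.91, 1.52 and 2.97 CPM with mCherry against 0, 1.21 and 0.841 CPM with OVOL2, where the count of 0 allows up to 0.721 CPM. With M2rtTA, PK45H had 3.80, 1.87 and 2.06 CPM against 1.80, 1.27 and 2.78 CPM, and the groups overlapped. OVOL2 libraries lay below the mCherry libraries in 4 of 6 comparisons.

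The CDH2 change over 3 lines was -1.93 without M2rtTA (SE 0.31, adjusted p = 1.49e-05), a 3.82-fold fall, and -0.96 with it (SE 0.29, adjusted p = 0.0085), a 1.95-fold fall. The arms differed by 0.97 (SE 0.42, adjusted p = 0.166), so the smaller fall with M2rtTA was not shown to differ. PANC1 was called in both arms, at -2.11 (SE 0.44, adjusted p = 0.0137) and -1.79 (SE 0.42, adjusted p = 0.0112). KP4 was called without M2rtTA at -1.72 (SE 0.49), at the edge of the threshold, and not with it, at -0.74 (SE 0.49, adjusted p = 0.311). PK45H was not called by edgeR, at -2.02 without M2rtTA (SE 0.66, adjusted p = 0.0746) and -0.34 with it (SE 0.57, adjusted p = 0.744). Without M2rtTA, PK45H was called by DESeq2 (-2.06, adjusted p = 0.0307) and in a fit of all 51 libraries (-1.99, adjusted p = 0.0261). The KP4 call was lost when any 1 of the 6 libraries compared was left out (adjusted p of 0.0529 to 0.167), with RLE scaling (0.0504), robust dispersion (0.0507) or no count filter (0.0764), and in a fit of only the groups compared (0.0877). The PANC1 call without M2rtTA was lost without OVOL2 replicate 1 (adjusted p = 0.0504), OVOL2 replicate 3 (0.0664) or mCherry replicate 3 (0.0577), and in a fit of only the groups compared (0.0697). Over the 3 lines both calls held with each library left out in turn.

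**Figure D2:**
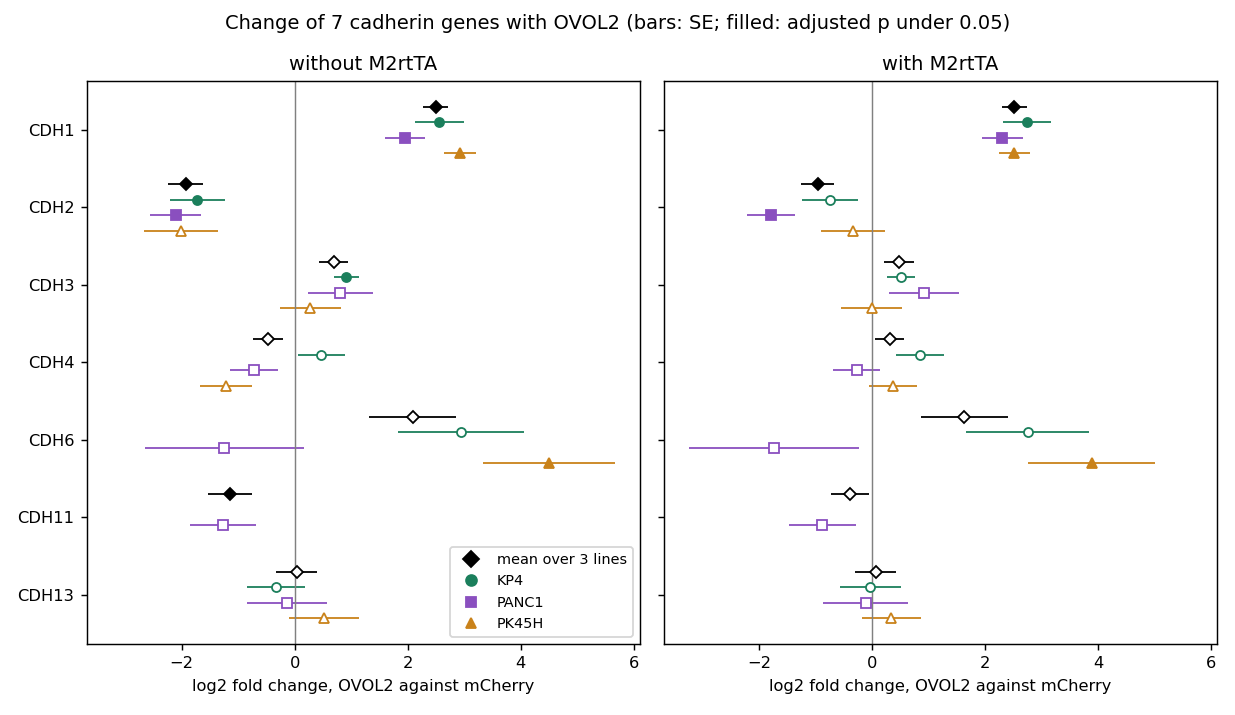
Log2 fold change of OVOL2 against mCherry (horizontal axes) for the 7 cadherin genes (vertical axis), without M2rtTA (left) and with it (right), as the mean over 3 lines and in each line; bars are standard errors and filled symbols have an adjusted p under 0.05. CDH1 is filled and to the right throughout, from 1.95 to 2.93, CDH2 is filled to the left over the 3 lines in both arms, and CDH13 has no filled symbol.

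The CDH1 and CDH2 counts of a library can be joined in a log2 ratio of their CPM, each plus 1. Counts of different genes are not scaled for length, so the ratio has no fixed zero, and only its shift between groups is read, as a description without a test. It ran from -0.82 to 1.20 over the 18 mCherry libraries and from 2.58 to 5.23 over the 18 OVOL2 libraries. The untreated HPAFII and PATU8988S libraries held 3.70 to 5.95, and the untreated libraries of the transduced lines -0.93 to 2.45. Group means with OVOL2 were 3.57 ± 0.38 for KP4, 3.07 ± 0.41 for PANC1 and 4.54 ± 0.71 for PK45H, and with M2rtTA 3.44 ± 0.25, 3.24 ± 0.58 and 3.17 ± 0.47 (mean ± SD, n = 3). The shift from mCherry to OVOL2 was 2.51 to 3.97 over the 6 comparisons, smallest in PK45H with M2rtTA and largest in PK45H without it. The highest untreated value among the transduced lines, 2.45, was in PK45H, the line low in both genes.

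**Figure D3:**
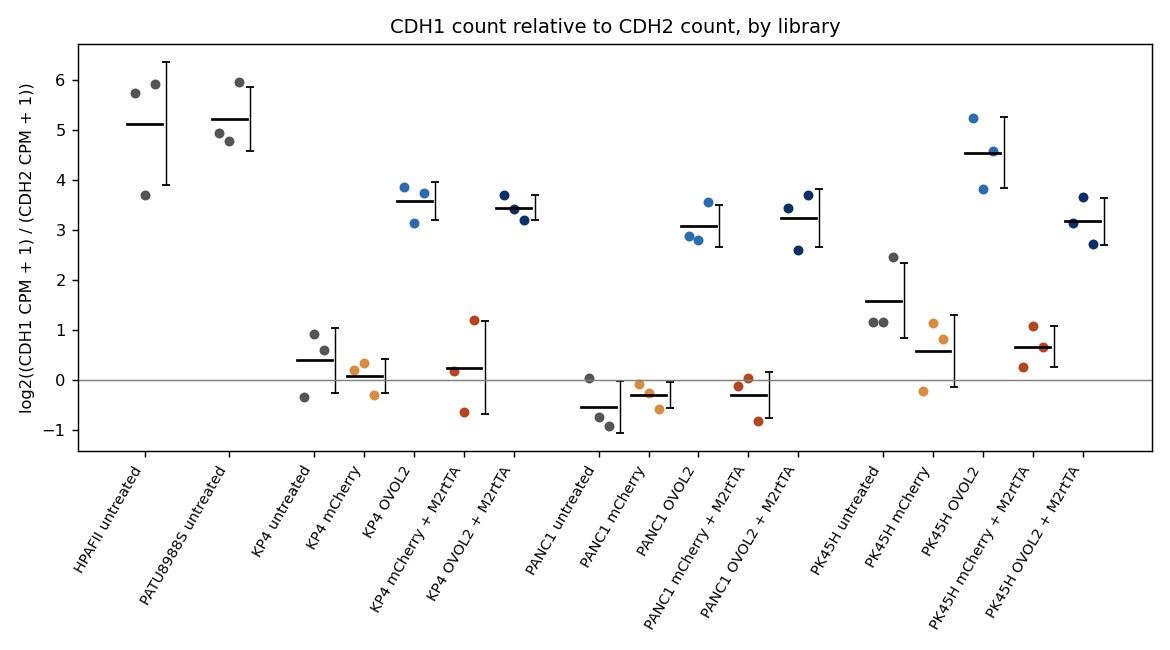
Log2 ratio of CDH1 to CDH2 (vertical axis, CPM plus 1 each) in each of the 51 libraries (points), by group (horizontal axis); horizontal bars are means and error bars SD (n = 3). The OVOL2 libraries lie between 2.58 and 5.23, above all mCherry libraries, whose highest value is 1.20.

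CDH3, the neighbour of CDH1 on chromosome 16, moved less. In KP4 without M2rtTA it went from 13.3, 13.2 and 11.0 CPM to 22.2, 26.5 and 22.3 CPM, with no overlap, a change of 0.91 (SE 0.23, adjusted p = 0.0276). That call was lost when any 1 of the 6 libraries was left out (adjusted p of 0.0539 to 0.104) and in a fit of all 51 libraries (0.131). With M2rtTA the KP4 levels were 7.73, 8.83 and 6.74 CPM with mCherry and 13.0, 12.8 and 6.80 CPM with OVOL2, and the change of 0.51 (SE 0.24) did not pass (adjusted p = 0.151). Without OVOL2 and M2rtTA replicate 3, the low library, it did (0.73, adjusted p = 0.0306). In PANC1 and PK45H no CDH3 change passed, with group means of 1.42 to 3.51 CPM. Over 3 lines CDH3 was at 0.69 (SE 0.26, adjusted p = 0.0633) and, with M2rtTA, 0.48 (SE 0.26, adjusted p = 0.164). The first value passed in DESeq2 (adjusted p = 0.0369) and without PANC1 OVOL2 replicate 1 (0.81, adjusted p = 0.0205).

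CDH4 showed no call in any OVOL2 comparison, and its estimates had both signs. Over 3 lines it was at -0.47 without M2rtTA (SE 0.26, adjusted p = 0.221) and 0.31 with it (SE 0.25, adjusted p = 0.368). The largest change in a line was -1.22 in PK45H without M2rtTA (SE 0.45, adjusted p = 0.117), from 4.16, 12.6 and 8.23 CPM to 5.77, 3.46 and 1.89 CPM, which overlapped. In KP4 with M2rtTA it was 0.85 (SE 0.42, adjusted p = 0.165), and this passed without mCherry and M2rtTA replicate 3 (1.40, adjusted p = 0.0461).

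CDH6, a cadherin of the developing kidney, varied from library to library within groups. Its median over the 51 libraries was 13.7 CPM, and 12 libraries lay at or above 5 times that median. The other 39 libraries held 7.45 to 42.1 CPM. The highest was PANC1 mCherry replicate 2, at 801 CPM (6011 counts), where replicates 1 and 3 of that group had 9.28 and 13.0 CPM. In PK45H with OVOL2 the libraries had 7.45, 175 and 644 CPM, and with M2rtTA 201, 17 and 295 CPM. In KP4 they had 283, 12.3 and 11.1 CPM, and with M2rtTA 13.6, 266 and 113 CPM. PANC1 with OVOL2 had 17.3, 315 and 15 CPM, and with M2rtTA 9.59, 10.6 and 11.2 CPM. Untreated HPAFII had 42.1, 68.4 and 229 CPM. High libraries numbered 8 of 18 with OVOL2 and 2 of 18 with mCherry (both in PANC1). In PANC1 the only high OVOL2 library was replicate 2 without M2rtTA. Among untreated cells, high libraries numbered 0 of 9 in KP4, PANC1 and PK45H, and 2 of 6 in HPAFII and PATU8988S. The group median stayed at 10.6 to 17.3 CPM in PANC1 and in KP4 without M2rtTA, and stood at 113 CPM in KP4 with OVOL2 and M2rtTA and at 175 and 201 CPM in PK45H with OVOL2. The cutoff of 5 times the median was chosen after the values were seen, and these counts carry no test.

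CDH6 was called in PK45H, at 4.5 without M2rtTA (SE 1.16, adjusted p = 0.0276) and 3.89 with it (SE 1.12, adjusted p = 0.0303). Without M2rtTA the call was lost when OVOL2 replicate 3 (2.87, adjusted p = 0.132) or any mCherry library (adjusted p of 0.0832 to 0.0926) was left out. With M2rtTA it was lost without OVOL2 replicate 1 (adjusted p = 0.0599), OVOL2 replicate 3 (0.0859) or any mCherry library (0.0897 to 0.0958). Both were lost with robust dispersion (adjusted p = 0.0717 and 0.0719). The first was also lost in a fit of only the groups compared (0.086), and the second in a fit of all 51 libraries (0.0539). In KP4 with M2rtTA, CDH6 was at 2.76 (SE 1.09, adjusted p = 0.0869) and passed without OVOL2 and M2rtTA replicate 1 (3.29, adjusted p = 0.0384). Without M2rtTA the KP4 value was 2.94 (adjusted p = 0.141). In PANC1 the CDH6 estimates had the opposite sign and did not pass. They were -1.24 (adjusted p = 0.705) and, with M2rtTA, -1.73 (adjusted p = 0.498). A difference between lines did not pass either (adjusted p = 0.191 and, with M2rtTA, 0.135). The mean over 3 lines thus joins estimates of both signs. Over 3 lines CDH6 was at 2.09 (SE 0.77, adjusted p = 0.0572) and, with M2rtTA, 1.63 (SE 0.77, adjusted p = 0.104). Leaving out PANC1 mCherry replicate 2 raised the first to 3.61 (adjusted p = 0.00104). Leaving out KP4 OVOL2 replicate 1 brought it to 1.04 (adjusted p = 0.382), and PANC1 OVOL2 replicate 2 to 1.14 (0.332). It also passed without KP4 OVOL2 replicate 2 or 3, PANC1 OVOL2 replicate 1 or 3, or PK45H OVOL2 replicate 1 (adjusted p of 0.0329 to 0.0455). The second passed without PANC1 mCherry and M2rtTA replicate 1 (2.12, adjusted p = 0.0488) and in a fit of only the groups compared (1.64, adjusted p = 0.0291). The counts may include amplification copies, whose part in the high libraries was not tested.

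**Figure D4:**
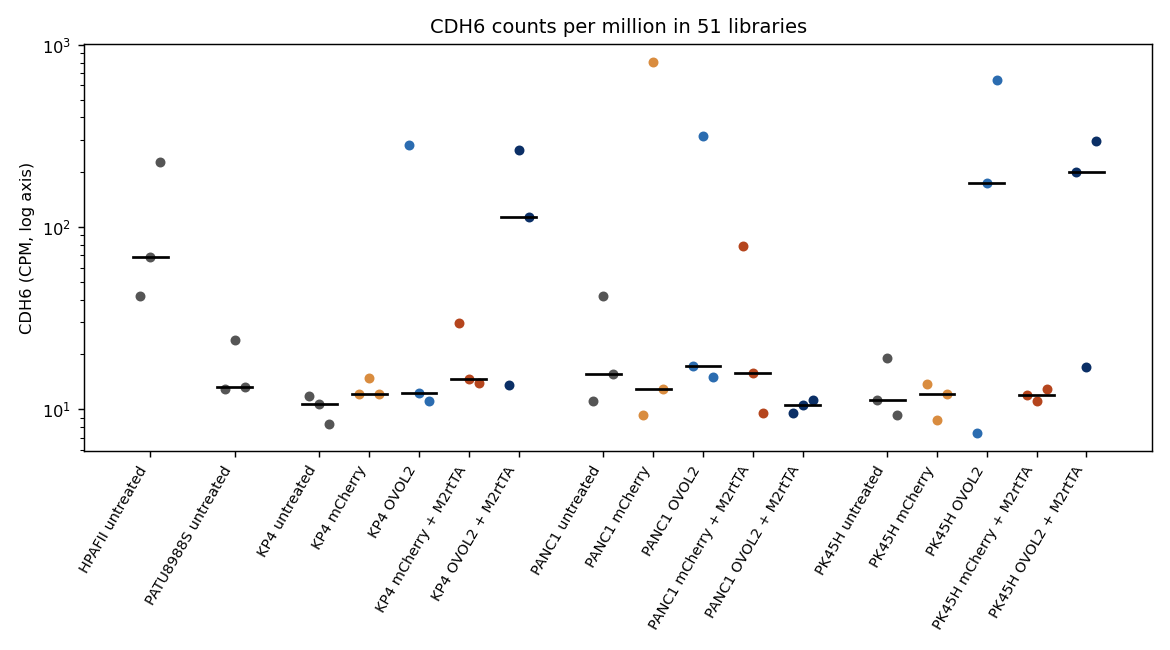
CDH6 level (vertical axis, CPM, log axis) in each of the 51 libraries (points), by group (horizontal axis); horizontal bars are group medians (n = 3). Of the libraries, 12 lie at or above 5 times the overall median of 13.7 CPM, the highest at 801 CPM in 1 PANC1 mCherry library and 644 CPM in 1 PK45H OVOL2 library.

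CDH11, a cadherin of mesenchymal cells and osteoblasts, had 0 to 19 counts per library. Over 3 lines without M2rtTA it was lower with OVOL2, by -1.15 (SE 0.38, adjusted p = 0.0318). Its 9 mCherry libraries ranged from 0.381 to 3.85 CPM with a median of 1.30, and the 9 OVOL2 libraries from 0 to 1.24 CPM with a median of 0.691. The call was lost when any of 9 of the 18 libraries was left out (adjusted p of 0.0521 to 0.0948): KP4 mCherry replicate 2, PANC1 mCherry replicate 1, PK45H mCherry replicates 1 and 3, KP4 OVOL2 replicates 1 and 2, PANC1 OVOL2 replicate 2, and PK45H OVOL2 replicates 1 and 3. It was also lost with no count filter (0.0515) and in a fit of only the groups compared (0.0504). With M2rtTA the change was -0.38 (SE 0.33, adjusted p = 0.413). In KP4 with M2rtTA the order was the opposite, with all 3 OVOL2 libraries (1.67 to 1.83 CPM) above the mCherry libraries (0.77 to 1.55 CPM). CDH11 entered the fit of PANC1 but not those of KP4 and PK45H, where it was under the count filter. CDH13 was present at 2 to 27 counts in the transduced lines and had no call. Over 3 lines its change was 0.03 (SE 0.36, adjusted p = 0.973) and, with M2rtTA, 0.07 (SE 0.36, adjusted p = 0.916), and the OVOL2 and mCherry libraries overlapped in 6 of 6 comparisons.

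The steps of the design that involve no OVOL2 were compared next. The labels list polybrene and doxycycline for the mCherry cells and not for the untreated cells. The step from untreated to mCherry thus joins virus, selection and both of these additions, which cannot be told apart. Between mCherry and untreated cells edgeR called 0 members in each line. The share of all genes called was 0% for KP4, 0.598% for PANC1 and 0.00736% for PK45H. At an unadjusted p under 0.05 there were 1, 2 and 1 members, and DESeq2 called 0 in each line. The PANC1 CDH2 level went from 11.1 ± 2.66 CPM untreated to 6.56 ± 1.79 CPM with mCherry (mean ± SD, n = 3), a change of -0.77 (SE 0.36, adjusted p = 0.493). In PK45H it went from 1.21 ± 0.428 to 2.80 ± 1.20 CPM, a change of 1.30 (SE 0.60, adjusted p = 0.623). M2rtTA added to mCherry gave 0 member calls in each line by edgeR and DESeq2, with 1 member at an unadjusted p under 0.05 in KP4, beside 0%, 0% and 0.0294% of all genes. The M2rtTA difference of the OVOL2 effect gave 0 calls among the members in each line and over 3 lines by both tools, with 0, 0, 1 and 2 at an unadjusted p under 0.05. All genes were called there at 1.43%, 0.136%, 1.60% and 7.72%. A difference of the OVOL2 effect between lines was called for 0 of 7 members in either arm by both tools (2 and 1 at an unadjusted p under 0.05), beside 2.74% and 7.56% of all genes.

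The proteins that bind cadherin tails or hold the junction next to them were followed in a list of 22 adherens junction genes. Of the 20 tested over 3 lines, 10 were called without M2rtTA, 5 higher and 5 lower, and 11 with it, 6 higher and 5 lower, beside 18.1% and 32.9% of all genes called. The list medians were -0.03 and 0.13 beside 0.00 and 0.03 over all genes. Among the catenins, CTNNA1 (α-catenin, the link to actin) rose by 0.57 (SE 0.08, adjusted p = 1.42e-06) and, with M2rtTA, 0.46 (SE 0.08, adjusted p = 2e-05). CTNND1 (p120-catenin, which keeps cadherin at the membrane) rose by 0.30 and 0.37 (adjusted p = 0.0033 and 0.000111). JUP (plakoglobin, shared with desmosomes) rose by 1.24 (SE 0.12, adjusted p = 1.35e-09) and 1.46 (SE 0.12, adjusted p = 8.86e-12). OVOL2 and mCherry libraries did not overlap in 6 of 6 comparisons for JUP and CTNNA1. CTNNB1 (β-catenin) did not pass, at 0.24 (SE 0.28, adjusted p = 0.619) and 0.13 (SE 0.28, adjusted p = 0.772).

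Other junction genes fell while CDH1 rose. NECTIN1, an immunoglobulin-like adhesion molecule of the same junction, changed by -1.0 without M2rtTA (SE 0.26, adjusted p = 0.00581) and -2.29 with it (SE 0.31, adjusted p = 3.96e-07). Untreated, NECTIN1 had the opposite relation, being 2.41 higher in the CDH1-high lines HPAFII and PATU8988S than in the rest (SE 0.25, adjusted p = 3.98e-06). NECTIN3 changed by -0.88 (adjusted p = 0.00331) and -0.56 (adjusted p = 0.0397). The second of these was lost when any of 10 of the 18 libraries was left out (adjusted p of 0.0531 to 0.116), all with M2rtTA: OVOL2 replicate 1 of KP4 and replicates 2 and 3 of PANC1 and PK45H, and mCherry replicate 3 of KP4 and replicates 2 and 3 of PANC1 and PK45H. It was also lost with no count filter (0.0539) and in a fit of only the groups compared (0.0533). CTNNAL1, an α-catenin relative, changed by -0.89 (adjusted p = 0.00553) and -1.49 (adjusted p = 7.24e-06), and PKP4, a p120 relative, by -0.37 (adjusted p = 0.0486) and -0.93 (adjusted p = 1.11e-06). The first PKP4 value was lost when any of 12 of the 18 libraries was left out (0.0506 to 0.138): OVOL2 replicate 2 of KP4 and replicates 1 and 2 of PANC1 and PK45H, and mCherry replicates 1 and 3 of KP4 and PANC1 and all 3 of PK45H. It was also lost with no count filter (0.0744) and in a fit of only the groups compared (0.0511). CAMSAP3, which anchors microtubules at the junction, rose by 1.87 (adjusted p = 2.1e-05) and 2.00 (adjusted p = 3.08e-06). In the untreated comparison 9 of 18 tested junction genes were called, 7 higher and 2 lower in HPAFII and PATU8988S, beside 34.8% of all genes. Among them were JUP (1.34, adjusted p = 0.000119), CTNND1 (1.08, adjusted p = 5.98e-07) and CAMSAP3 (2.41, adjusted p = 4.12e-05). Mean levels of CTNNA1 and PKP4, as for NECTIN1, ran opposite to their change with OVOL2 there. CTNNA1 had 91.6 CPM in HPAFII and PATU8988S against 101 CPM in the rest, and PKP4 47.4 against 40.3 CPM, and for each the libraries overlapped.

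Of 8 listed repressors of CDH1, 7 were tested over 3 lines and 3 were called in each arm, ZEB1 and TCF3 lower and SNAI1 higher, beside 18.1% and 32.9% of all genes. ZEB1, a zinc-finger repressor that binds E-boxes in the CDH1 promoter, had 15.3 to 33.1 CPM in the mCherry libraries without M2rtTA and 1.92 to 5.16 CPM in the OVOL2 libraries. It changed by -2.64 (SE 0.24, adjusted p = 1.74e-10) and, with M2rtTA, -1.95 (SE 0.22, adjusted p = 1.44e-08), without overlap in 6 of 6 comparisons. Untreated, ZEB1 was lower in HPAFII and PATU8988S than in the rest (-2.05, SE 0.28, adjusted p = 4.85e-05). Of the 5 repressors tested there, it was the only 1 called and 4 were not, beside 34.8% of all genes called. TCF3, which encodes the E-box proteins E12 and E47, changed by -0.33 (adjusted p = 0.00292) and -0.50 (adjusted p = 5.17e-06). SNAI1, also a repressor of CDH1, was at 1.60 (SE 0.52, adjusted p = 0.0292) and 1.26 (SE 0.48, adjusted p = 0.041). Its OVOL2 libraries lay above the mCherry libraries in 3 of 6 comparisons, KP4 with M2rtTA and PANC1 in each arm. PK45H had little SNAI1, with means of 0.127 and 0.250 CPM with mCherry and 0.648 and 0.344 CPM with OVOL2, which overlapped. The SNAI1 counts were 0 to 42 per library, and its calls were lost when any of 6 libraries (adjusted p of 0.0503 to 0.0806) and any of 10 libraries (0.0568 to 0.48) was left out. Without M2rtTA these were KP4 OVOL2 replicate 1, KP4 mCherry replicate 3, PK45H OVOL2 replicates 2 and 3, and PK45H mCherry replicates 1 and 3. With M2rtTA they were KP4 OVOL2 replicate 3, KP4 mCherry replicates 2 and 3, PANC1 OVOL2 replicates 2 and 3, PANC1 mCherry replicates 1 and 2, PK45H mCherry replicates 1 and 3, and PK45H OVOL2 replicate 1, without which the value was 0.78. The SNAI1 call with M2rtTA was also lost with no count filter (adjusted p = 0.0616) and in a fit of only the groups compared (0.0619). ZEB2 and SNAI2 did not pass, at -0.04 and 0.03 for ZEB2 (SE 0.20 each) and -0.50 and -0.85 for SNAI2 (SE 0.46 and 0.45). SNAI2 was low outside PK45H, with mCherry means of 0.789 to 0.972 CPM in KP4 and PANC1 and 8.20 and 10.2 CPM in PK45H. Its OVOL2 libraries lay below the mCherry libraries in 2 of 6 comparisons, PANC1 without M2rtTA and PK45H with it (4.16 against 10.2 CPM). TWIST1 was under the count filter.

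**Figure D5:**
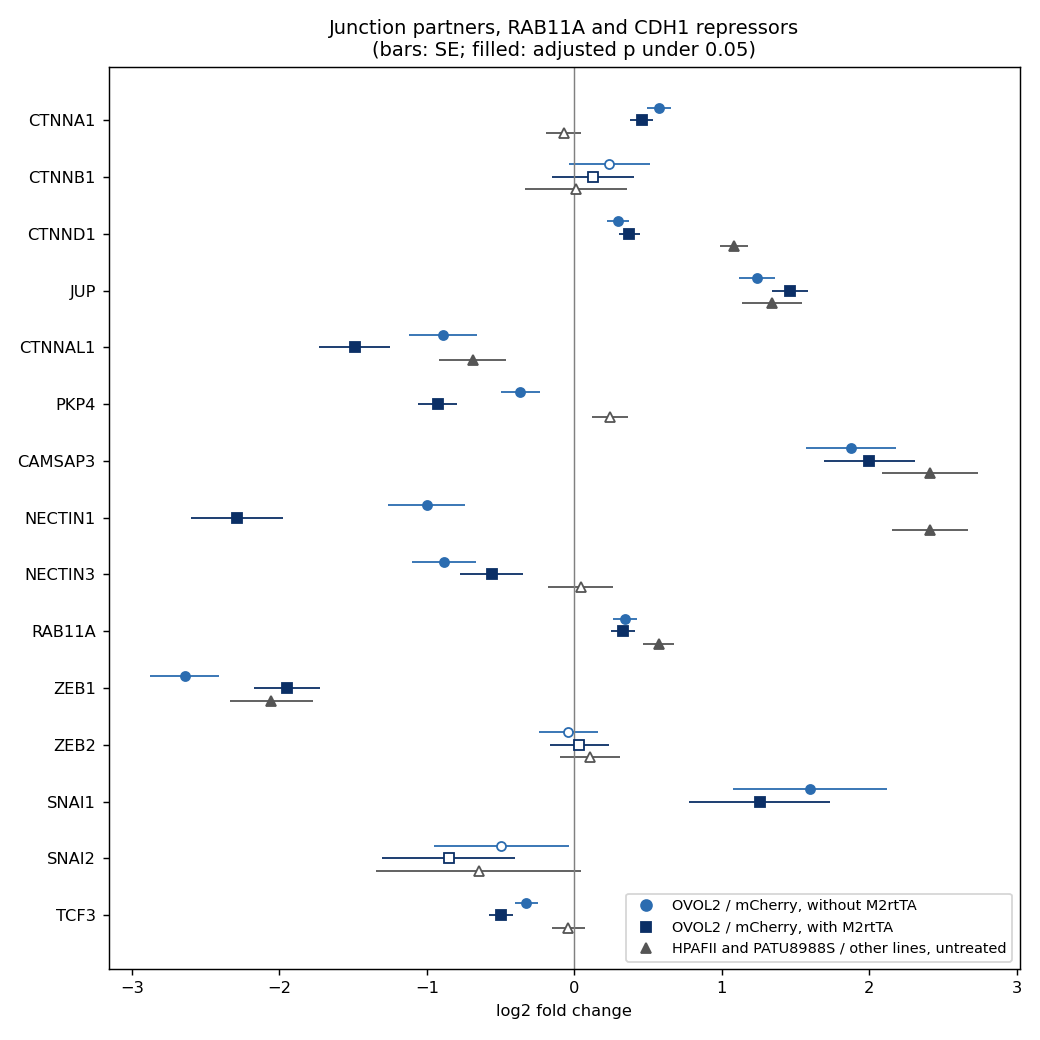
Log2 fold changes (horizontal axis) of named junction partners, RAB11A and CDH1 repressors (vertical axis) with OVOL2 over 3 lines, without and with M2rtTA, and in untreated HPAFII and PATU8988S against the other lines; bars are standard errors and filled symbols have an adjusted p under 0.05. JUP and CAMSAP3 lie to the right and ZEB1 to the left in all 3 comparisons, while NECTIN1 is at -1.0 and -2.29 with OVOL2 and at 2.41 in the untreated comparison.

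A list of 15 genes that cut, sort or degrade cadherins had 3 called without M2rtTA, all higher, and 8 with it, 7 higher and 1 lower, with list medians of 0.26 and 0.27. All genes were called at 18.1% and 32.9%, so the share without M2rtTA was near the background. RAB11A, a GTPase of recycling endosomes that carry E-cadherin, rose by 0.34 (SE 0.08, adjusted p = 0.00249) and 0.33 (SE 0.08, adjusted p = 0.00185). Its OVOL2 and mCherry libraries overlapped in 4 of 6 comparisons. With M2rtTA the ratio of means was 1.68 in PANC1, 1.08 in KP4 and 1.05 in PK45H. Of 15 further cadherins, 9 were tested, and edgeR and DESeq2 called 0 without M2rtTA (0 at an unadjusted p under 0.05). With M2rtTA, CDH7 alone was called, at -1.78 (adjusted p = 0.00809), and this rested on 1 library: PK45H mCherry and M2rtTA replicate 2 had 568 CPM of CDH7, and without it the value was -0.25 (adjusted p = 0.593). CDH17, the liver-intestine cadherin, was the further cadherin called between untreated lines. It had 51.9 to 200 CPM in HPAFII and PATU8988S and 3.34 to 5.97 CPM in the other untreated lines (4.98, SE 0.19, adjusted p = 1.62e-10). Unlike CDH1, it did not pass with OVOL2, at -0.49 (SE 0.25, adjusted p = 0.176) and -0.17 (SE 0.24, adjusted p = 0.642). CDH7 and CDH17 were named after their values were seen.

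The genes whose group means most resembled those of a member were taken as a description, by Pearson's r of log2 CPM over the 17 groups among 10274 genes. The groups share lines and viruses, so these values carry no p. For CDH1 they were EPCAM (r = 0.97), an epithelial adhesion molecule, SERINC2 (0.96) and ESRP1 (0.92), an epithelial splicing factor. For CDH2 they were WASF1 (0.89), ZNF546 (0.89) and FADS2 (0.88), and for CDH3 PAX8-AS1 (0.95), CKMT1B (0.94) and SEMA4D (0.93). CDH4 was nearest to DDX6 (0.89), HLA-V (0.88) and WNT2B (0.86), and CDH6 to OR1I1 (0.84), ADAM10 (0.81) and RILPL1 (0.78). The CDH4 means include HPAFII replicate 2, and the CDH6 means include the high libraries described above. The part of these libraries in the likeness was not tested. By Spearman's rank correlation the 3 nearest genes shared none with these for CDH1 and CDH2, 1 for CDH3 and CDH6, and 2 for CDH4. Between members, r was -0.56 for CDH1 with CDH2 and 0.35 for CDH1 with CDH3. CDH1 stood at -0.90 with ZEB1 and CDH2 at 0.62 with ZEB1.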

How the data were processed

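Gene counts were measured by PLATE-seq, a 3′-end RNA-seq method on pooled barcoded wells. The values deposited by the authors were whole-number counts per gene symbol without normalisation. Kallisto 0.44.0 and the build GRCh38 are named in the submitters' processing notes. How whole counts were made from them, and how molecular identifiers were handled, is not given in the sources used here. Every column of values was matched to a sample by its label, so 0 stayed unmatched.

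Counts were tested with edgeR 4.0.16 in R 4.3.3 (filterByExpr, TMM, two-sided quasi-likelihood test, Benjamini-Hochberg adjustment over all genes, threshold 0.05). Each transduced line had a fit of 15 libraries. The mean over 3 lines and its difference between lines came from a fit of 45, and the untreated lines from a fit of 15. Standard errors were derived from the test statistic. Figures and levels were made in Python 3.11.15, with CPM from TMM factors of all 51 libraries. Replicate libraries of a group were checked pair by pair (51 pairs), with 0 identical and chi-square values per degree of freedom of 16.9 to 76.2. The script was tested on simulated data with known changes. Alternatives were RLE scaling, other count filters, DESeq2 1.42.0, other sets of libraries in a fit, a replicate block, robust dispersion and leaving out each library. The M2rtTA difference over 3 lines was added after seeing the data.

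The members and gene lists were chosen with earlier results of these data known. Named genes were all 7 members, ZEB1, ZEB2, SNAI1, SNAI2, TWIST1, OVOL2, CTNNB1, CTNNA1, CTNND1 and JUP. Of each list, up to 6 genes called over 3 lines in both arms were added, by size of change with M2rtTA, and for members with at least 5 CPM in a group the 3 genes most alike over the groups. A gene of the list on cadherin turnover that met this rule is not reported here. Promoters were read from a RefSeq table (GRCh38.p14). Counting limits (3 counts for a count of 0) cover counting error only.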

Additional observations from a re-analysis of the deposited data

Results flagged for a closer look

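No cadherin gene of the set showed an OVOL2 effect that differed between lines or between arms past the threshold. Of the genes named beside them, 6 did by edgeR, among them OVOL2 itself and CDH7, named after its values were seen. Over all genes, 2.74% and 7.56% differed between lines without and with M2rtTA, and 7.72% between arms. Of the 20 junction genes tested, 1 and 3 differed between lines, and 1 between arms. The JUP rise without M2rtTA differed between lines (adjusted p = 0.017): it was 0.81 in KP4, 0.86 in PANC1 and 1.99 in PK45H (SE 0.19 to 0.22). With M2rtTA, CAMSAP3 differed between lines (adjusted p = 0.0224), with 3.88 in KP4 and 1.43 in PK45H, and it was under the count filter in PANC1. RAB11A also differed with M2rtTA (adjusted p = 0.0438), at 0.74 in PANC1, 0.11 in KP4 and 0.13 in PK45H. CDH7 differed with M2rtTA (adjusted p = 0.0294), and its PK45H value of -4.68 rested on the library with 568 CPM. Between arms, over 3 lines, the OVOL2 effect on NECTIN1 was lower by -1.29 with M2rtTA (SE 0.41, adjusted p = 0.0498), and PANC1 showed the widest gap, -0.04 without M2rtTA and -2.94 with it, where the OVOL2 libraries had 3, 1 and 0 counts. The effect on the OVOL2 count itself was higher by 2.25 with M2rtTA (SE 0.65, adjusted p = 0.0268). Groups of 3 libraries are too small for a test of single outlying libraries.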

How the results depend on the processing

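The CDH1 and CDH2 calls over 3 lines in both arms, and in untreated HPAFII and PATU8988S against the rest, kept their direction and their side of the threshold under every alternative run, with CDH1 at 2.37 to 2.68 with each library left out. Other member calls with values given above that were lost stand beside those values, or below for the replicate block. The CDH2 call of untreated HPAFII against KP4 was lost without HPAFII replicate 1 or 3 or KP4 replicate 1 (adjusted p 0.0673 to 0.0766). The CDH6 calls of untreated HPAFII against PANC1 and PK45H were lost in the fit of all 51 libraries (0.183 and 0.0762). The call against PANC1 was also lost without HPAFII replicate 3 (0.0669). Counts of called genes moved more. For the M2rtTA difference they were 195 in KP4 (114 with no filter, 455 with DESeq2, 112 with the replicate block), 18 in PANC1 (131 DESeq2, 10 block, 49 in a fit of all 51 libraries) and 217 in PK45H (503, 116 and 338). For mCherry against untreated, KP4 had 0 (11 with DESeq2, 11 in the fit of 51), PANC1 79 (191 and 132) and PK45H 1 (26 and 44, and 2 with no filter, robust dispersion or the block). For M2rtTA with mCherry, KP4 had 0 (16 and 23), PANC1 0 (23 and 27) and PK45H 4 (75 and 28). The difference between lines without M2rtTA had 409 (649 with DESeq2). In fits of only the groups compared, OVOL2 without M2rtTA had 532 calls for KP4 (932 in the fit reported), 302 for PANC1 (671) and 628 for PK45H (1139), and OVOL2 with M2rtTA had 1424 for PK45H (2153). With each library left out in turn, the counts for OVOL2 without M2rtTA were 471 to 566 (KP4), 343 to 422 (PANC1) and 701 to 943 (PK45H), and 1387 to 1694 in PK45H with M2rtTA. They were 78 to 177, 6 to 19 and 93 to 272 for the M2rtTA difference in the same order of lines, 0 to 1, 27 to 60 and 0 to 5 for mCherry against untreated, and 0 to 1, 0 to 14 and 2 to 18 for M2rtTA with mCherry. The cause was not tested.

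Same-numbered libraries did not pair: of 18 correlations of their deviations, 1 was over 0.1 (range -0.17 to 0.16). With the replicate block the KP4 CDH2 call was lost (-1.72, adjusted p = 0.085), as were the PK45H CDH6 calls (4.13 and 3.67, adjusted p = 0.0623 and 0.0534). The block also lost the CDH4 call of untreated HPAFII against KP4 (1.52, adjusted p = 0.0654). CPM under RLE scaling stayed within 1 SD of the group mean in all 119 member levels, and library totals alone moved 5 of them further. With 0.5 in place of 1 in the CDH1 to CDH2 ratio, the shift with OVOL2 was 2.67 to 4.48. Counts of 0 to 13 for CDH2 with OVOL2 limit how closely its fall can be sized.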
